A study of Mus musculus with 5 samples.

Results

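The 9 genes described here encode homeodomain transcription factors of dorsal to ventral patterning, mostly of the embryonic forebrain. They are grouped as the pallial genes Emx1, Emx2 and Pax6, the striatal genes Gsx2, Dlx1 and Dlx2, and the ventral genes Nkx2-1, Nkx6-1 and Nkx6-2. In cultured neural stem and precursor cells of the adult mouse subventricular zone (SVZ), the pallial genes Emx2 and Pax6 stood highest, at a mean of 26.9 ± 6.48 and 12.9 ± 4.15 TPM (SD, n = 5 libraries). The striatal genes Dlx2 and Dlx1 followed at 2.62 ± 0.695 and 1.30 ± 0.499 TPM. Nkx6-2 averaged 0.797 ± 0.444 TPM, Gsx2 and Nkx2-1 were near 0, and Emx1 and Nkx6-1 were listed at 0 in every library. TPM is a gene's share of all transcripts, corrected for its length and scaled to the same total in each library, so that levels can be compared between genes. The genes were chosen by name and make up 9 of the 46078 genes in the table of each library, and all 9 were found there.

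In the embryo the pallium gives rise to the cerebral cortex, the lateral ganglionic eminence to the striatum and olfactory bulb interneurons, and the medial ganglionic eminence to the pallidum and cortical interneurons. Emx and Pax6 proteins specify pallial progenitors, Gsx2 opposes Pax6 at the boundary and acts upstream of the Dlx genes, and Nkx2-1 specifies the medial ganglionic eminence. Stem cells in different walls of the adult SVZ keep parts of this embryonic code and produce different olfactory bulb interneurons. Nkx6-1 marks ventral progenitors of the hindbrain and spinal cord, and the study used SVZ cells as a forebrain reference for this gene beside brainstem-type astrocytes.

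RNA was taken 1 h (n = 2) or 8 h (n = 3) after PBS, the vehicle of the study's peroxide exposure, had been added to undifferentiated cells on poly-D-lysine-coated plates. Every library is labelled as coming from female C57BL/6 mice of 5 to 8 weeks with no mutation, whereas the study's methods give an older age for its SVZ animals, and all cells had been expanded as spheres in EGF and basic FGF before plating. The study's methods count each animal as a replicate, whereas the labels do not tie a library to an animal, so the p-values measure only the spread between these libraries, which may be technical. No untreated or peroxide-exposed library was analysed here, and the design contrasts only the time after PBS.

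Some libraries stood apart from their labels. The labels carry identifiers of 2 number series, whose meaning the sources used here do not give. Both 1 h libraries and 8 h replicate 14 belong to series 1, and 8 h replicates 13 and 15 to series 2. The 3 series 1 libraries held 138 to 181 TPM of 4 Y-linked genes summed and at most 0.0611 TPM of Xist, the RNA of the inactive X chromosome, against their label of female. The series 2 libraries held at most 0.0253 TPM of the Y-linked genes and 165 and 200 TPM of Xist. Mitochondrially encoded genes took 10.7% to 11.1% of TPM in series 1 and 6.23% and 6.30% in series 2. Time and series are therefore separated only through 8 h replicate 14. The limma tests of members that passed the filter are given with and without the series. The edgeR tests are given without it and with the series that the count column names give. Between 13681 and 13967 genes per library reached 1 TPM, and coverage divided by FPKM, a relative measure of depth, spanned 5.57 to 7.18.

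The labelled cell type was checked against marker lists. All 6 neural stem and precursor markers averaged at least 1 TPM, led by Fabp7 at 8582 TPM, as did all 5 oligodendrocyte progenitor markers, led by Olig1 at 1345 TPM. Of 5 neuroblast markers 2 reached that level, Cd24a and Dcx, and of 4 ependymal markers 1 did, Foxj1 at 19.2 TPM. Of the microglial and choroid plexus markers none of 4 and none of 3 did, with Ttr and Folr1 listed at 0 in every library. Of 4 endothelial markers 1 did, Flt1 at 11.8 TPM, with Cldn5 and Cdh5 at 0. In bulk RNA, fewer cells of a type and less RNA per cell cannot be told apart, and this holds for every level below.

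The sequences upstream of the members differ in base composition, and 4 of them are printed so that the promoters of members at unlike levels can be compared. In RefSeq (GRCm38.p6), 10 windows of 250 bases ending at a transcription start matched the 9 members, 2 of them for Pax6. These windows had a median of 23 CpG dinucleotides, against 6 over all 32851 such windows. The members listed at 0 in every library, Emx1 and Nkx6-1, held 30 CpGs each, the most of the 9 genes, whereas Emx2, the highest member, held 24. The first Pax6 window held 15, Gsx2 16, Dlx2 24, Dlx1 22, Nkx6-2 26 and Nkx2-1 9, so the CpG number did not follow the level among these genes. The windows of Emx1, Emx2, Dlx1 and Nkx6-1 and the second of Pax6 overlapped annotated exons of their own gene. They are thus not purely upstream sequence, whereas the Gsx2 window overlapped no exon. The first window of Pax6 and those of Dlx2, Nkx6-2 and Nkx2-1 also overlapped none. These are printed 5′ to 3′ on the strand of the gene, with each CpG in capitals. They lie at chr2:105668646-105668895 (plus), chr2:71546755-71547004 (minus), chr7:139582798-139583047 (minus) and chr12:56536909-56537158 (minus).
Pax6: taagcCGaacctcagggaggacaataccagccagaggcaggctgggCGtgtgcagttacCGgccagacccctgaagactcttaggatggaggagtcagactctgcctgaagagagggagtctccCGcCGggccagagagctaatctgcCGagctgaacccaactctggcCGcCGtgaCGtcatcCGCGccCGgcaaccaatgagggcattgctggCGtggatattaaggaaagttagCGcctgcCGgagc
Dlx2: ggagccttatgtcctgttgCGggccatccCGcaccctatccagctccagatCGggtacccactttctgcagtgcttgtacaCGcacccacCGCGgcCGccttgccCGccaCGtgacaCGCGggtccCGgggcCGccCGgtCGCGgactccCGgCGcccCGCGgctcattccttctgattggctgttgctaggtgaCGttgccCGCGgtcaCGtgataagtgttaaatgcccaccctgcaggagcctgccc
Nkx6-2: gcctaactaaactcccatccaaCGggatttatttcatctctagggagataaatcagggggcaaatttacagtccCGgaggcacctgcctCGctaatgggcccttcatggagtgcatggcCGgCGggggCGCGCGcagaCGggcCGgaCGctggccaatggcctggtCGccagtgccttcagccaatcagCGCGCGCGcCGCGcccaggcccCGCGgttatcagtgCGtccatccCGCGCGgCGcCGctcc
Nkx2-1: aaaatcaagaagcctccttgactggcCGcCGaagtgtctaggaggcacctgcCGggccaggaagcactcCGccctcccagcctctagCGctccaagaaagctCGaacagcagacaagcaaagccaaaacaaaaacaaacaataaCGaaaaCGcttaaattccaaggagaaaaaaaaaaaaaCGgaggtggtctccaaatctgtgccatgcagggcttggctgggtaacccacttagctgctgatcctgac
The CCAAT box, searched on both strands, was present in 4 of the 10 windows (Emx2, the first of Pax6, Dlx2 and Nkx6-2), 40% against 33.8% of all windows. The TATAAA box was present in 1, that of Gsx2 (10% against 12.4%), and the homeodomain core TAATTA in none (0% against 4.84%). No motif of the 3 contains another, and a match is a description of the window alone.

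The pallial group was carried by a pair of its 3 genes. Emx2 (ENSMUSG00000043969; GRCm38 chromosome 19, 59458372 to 59465357, plus strand), needed for growth of the hippocampus and of caudal cortex, was at 28.7 and 15.6 TPM in 1 h replicates 1 and 2, and at 30.3, 28.2 and 31.7 TPM in 8 h replicates 13, 14 and 15. One low library, 1 h replicate 2, set it apart from the other 4, and the times overlapped. Its mean stood above 56.4% of the 13870 genes whose mean TPM reached 1. Its antisense partner Emx2os, whose annotated span overlaps the start of Emx2, was at 2.63 to 3.14 TPM. Its highest values, in 1 h replicate 2 and 8 h replicate 13, were nearly equal at 3.14 and 3.11 TPM. The libraries kept strand, but whether the level tables used it is not stated in these sources, so reads of the shared stretch may belong to either gene.

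Pax6 (ENSMUSG00000027168; chromosome 2, 105668900 to 105697364, plus strand), a paired-box factor of cortical progenitors and of dopaminergic periglomerular neurons, was at 9.09 and 10.2 TPM at 1 h. At 8 h it was at 17.5, 10.4 and 17.4 TPM in replicates 13, 14 and 15. The 8 h libraries lay above both 1 h libraries, with replicate 14 just above 1 h replicate 2, while the series 2 libraries stood clear of the other 3. Pax6 was below Emx2 in 5 of 5 libraries, and its mean stood above 37.3% of the 13870 genes.

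Emx1 (ENSMUSG00000033726; chromosome 6, 85187438 to 85204462, plus strand), the paralogue that marks cortical excitatory lineages, was listed at 0 in all 5 libraries. The level tables give no read numbers, so no upper limit can be set on it. None of the 6860 genes that had 100 counts or more in each column of the count table was listed at 0 TPM (0 genes). This covers well-counted genes alone, and the count table lacked Emx1 and Nkx6-1. It therefore cannot tell whether the zeros of low genes are true.

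**Figure D1:**
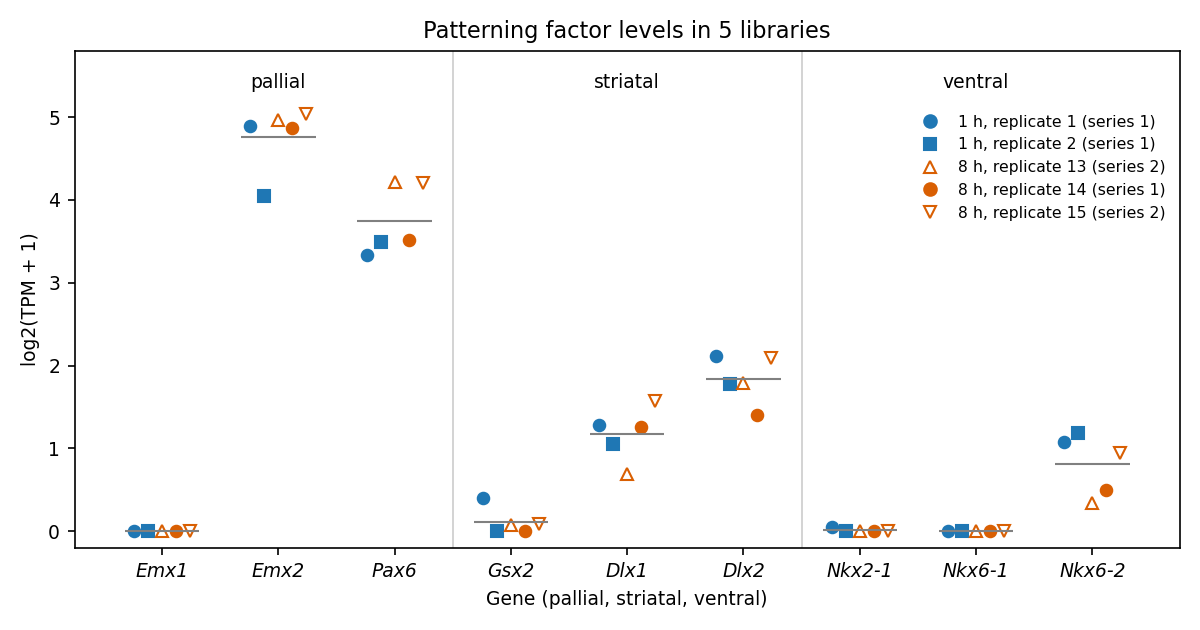
Level of each of the 9 genes as log2(TPM + 1) in the 5 libraries, with blue for 1 h and orange for 8 h, filled symbols for identifier series 1 and open symbols for series 2, and a grey line at the mean of the 5. Emx2 and Pax6 lie above all striatal and ventral genes, and Emx1 and Nkx6-1 lie at 0.

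Among the striatal genes, Dlx2 and Dlx1 were measured at low levels and Gsx2 close to none. Dlx2 (ENSMUSG00000023391; chromosome 2, 71543408 to 71546754, minus strand), which drives interneuron differentiation and marks transit-amplifying cells and neuroblasts of the SVZ, was at 3.34 and 2.42 TPM at 1 h and at 2.45, 1.65 and 3.26 TPM at 8 h (replicates 13, 14, 15). Its neighbour Dlx1 (ENSMUSG00000041911; chromosome 2, 71528113 to 71533981, plus strand), which acts with it in the same lineage, was at 1.43 and 1.08 TPM at 1 h and at 0.618, 1.40 and 1.98 TPM at 8 h. In both genes the times overlapped. The genes face each other 9426 bases apart, and Dlx2 was above Dlx1 in 5 of 5 libraries, by 1.18-fold in 8 h replicate 14 to 3.97-fold in 8 h replicate 13. The antisense gene Dlx1as, which overlaps Dlx1, averaged 0.0897 TPM.

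Gsx2 (ENSMUSG00000035946; chromosome 5, 75075601 to 75077893, plus strand), the selector of the lateral ganglionic eminence, was at 0.316 TPM in 1 h replicate 1, listed at 0 in 1 h replicate 2 and 8 h replicate 14, and at 0.0504 and 0.0631 TPM in 8 h replicates 13 and 15. Its highest value was below the lowest of Dlx1.

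The ventral group was nearly empty. Nkx6-2 (ENSMUSG00000041309; chromosome 7, 139579376 to 139582797, minus strand), a factor of ventral progenitors that is also needed for axon-glia contacts of oligodendrocytes, was at 1.12 and 1.28 TPM at 1 h and at 0.263, 0.406 and 0.920 TPM at 8 h (replicates 13, 14, 15). All 3 of the 8 h libraries lay below both 1 h libraries. An exact two-sided permutation test of its mean TPM gave p = 0.2, which is the smallest value that 2 against 3 libraries can give. With no filter on low levels, 9.9% of the 23583 genes above 0 in any library lay wholly below in the same way.

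Nkx2-1 (ENSMUSG00000001496; chromosome 12, 56531958 to 56536908, minus strand) was at 0.0365 TPM in 1 h replicate 1 and listed at 0 in the other 4 libraries. Nkx6-1 (ENSMUSG00000035187; chromosome 5, 101658139 to 101664996, minus strand) was listed at 0 in all 5. The brainstem gene for which these cells served as a reference was thus listed at 0 at both times, as was the cortical marker Emx1.

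In the order of mean levels, only Pax6 and Dlx2 were neighbours whose ranges over the 5 libraries did not meet, with a ratio of means of 4.93. Emx2 and Pax6, Dlx2 and Dlx1, and Dlx1 and Nkx6-2 had overlapping ranges, with ratios of means of 2.08, 2.02 and 1.63, but within a library the upper gene was higher in 5, 5 and 4 of 5 libraries. Nkx6-2 was above Gsx2 in 5 of 5. The order below Gsx2 rests on single values near 0.

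Summed by domain, the pallial genes held 37.8 and 25.8 TPM at 1 h and 47.8, 38.6 and 49.1 TPM at 8 h (replicates 13, 14, 15). The striatal genes held 5.09 and 3.50 TPM at 1 h and 3.12, 3.05 and 5.30 TPM at 8 h. The ventral genes held 1.16 and 1.28 TPM at 1 h and 0.263, 0.406 and 0.920 TPM at 8 h. The pallial sum was above the striatal sum in every library, by 7.38-fold to 15.3-fold, and the striatal sum was above the ventral sum by 2.74-fold to 11.9-fold. Pallial genes took 84.4% to 93.4% of the TPM of the 9 members, striatal genes 6.10% to 11.6% and ventral genes 0.513% to 4.18%. The pallial share was 85.1% ± 1.02 at 1 h (SD, n = 2) and 91.3% ± 2.35 at 8 h (SD, n = 3). This difference was not tested, and 8 h replicates 13 and 15 also differ from the 1 h libraries by series. These shares rest mostly on Emx2 and Pax6, and a sum over 3 genes says nothing about how many cells carry each.

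**Figure D2:**
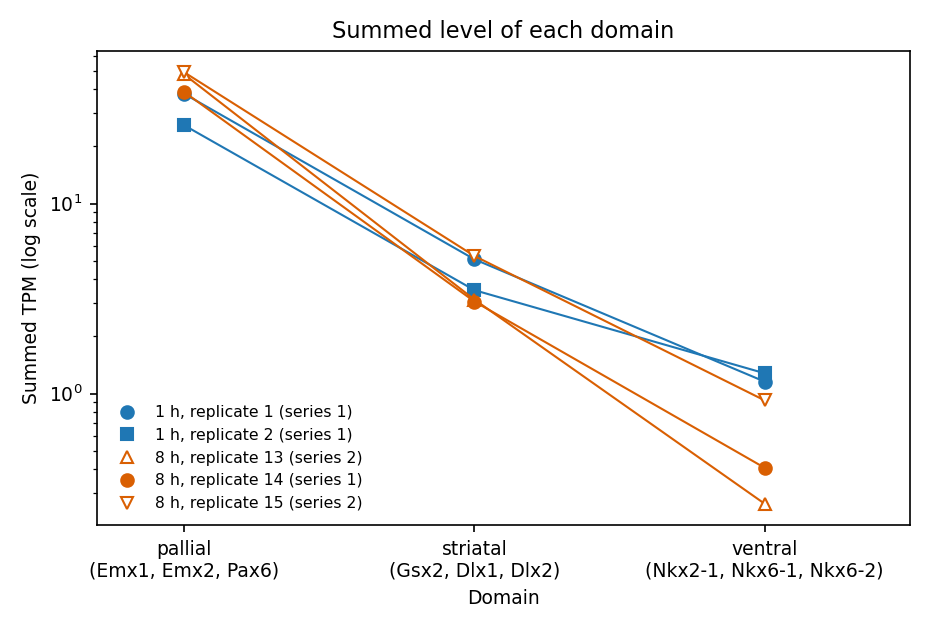
Summed TPM of the 3 genes of each domain on a log axis, with 1 line per library, blue for 1 h and orange for 8 h, filled symbols for identifier series 1 and open symbols for series 2. All 5 lines fall from pallial (25.8 to 49.1 TPM) through striatal (3.05 to 5.30 TPM) to ventral (0.263 to 1.28 TPM).

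The comparison of 8 h with 1 h asked whether time after sham exposure moved these levels. It was tested with limma on log2(TPM + 1) over 13870 genes whose mean TPM reached 1, and a call needed both a Benjamini-Hochberg adjusted p up to 0.05 and a log2 difference above 1 in size. Of the 9 members 4 passed the filter on low levels, and 0 of these 4 were called, where 0.0433% of all tested genes were (6 genes). At an unadjusted p under 0.05 the count was also 0 of 4, against 12.3% of all genes. The difference, 8 h minus 1 h, was 0.56 ± 0.24 (SE) for Pax6 (limma, adjusted p = 0.408) and 0.48 ± 0.25 for Emx2 (adjusted p = 0.442). For Dlx1 it was 0.0069 ± 0.30 (adjusted p = 0.994) and for Dlx2 it was -0.18 ± 0.26 (adjusted p = 0.733). The median over all genes was 0.10. Pax6 was the 1 of the 4 tested members whose 8 h libraries all lay above the 1 h libraries, which held for 23.7% of all tested genes.

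Within series 1, 8 h replicate 14 exceeded the 1 h libraries by 0.10 ± 0.16 for Pax6 and 0.40 ± 0.36 for Emx2, and the difference was -0.54 ± 0.25 for Dlx2 and 0.092 ± 0.26 for Dlx1 (limma, adjusted p between 0.683 and 0.938), a fit that lends the single 8 h library the spread of the 1 h libraries. Without 8 h replicate 14, where time and series cannot be told apart, the Pax6 difference was 0.79 ± 0.12 (limma, adjusted p = 0.0106), still under the log2 threshold of 1. Of 13901 genes in that limma fit, 5200 had an unadjusted p under 0.05 and 573 were called, so Pax6 did not stand out there. The Emx2 difference turned on a single library: it was 0.063 without 1 h replicate 2 and 0.90 without 1 h replicate 1. In the no-filter fit, where Nkx6-2 entered, its difference was -0.55 ± 0.20 (limma, adjusted p = 0.484).

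The count table used here held 2 of the 9 members, Pax6 and Dlx2. Emx2, the highest member at a mean of 26.9 TPM, was absent although Dlx2 at 2.62 TPM was present. The counts therefore give no check on Emx2. Its columns named 1 h replicates 1 and 2 and 8 h replicates 13, 14 and 15 held 325, 395, 408, 432 and 669 counts of Pax6, and 74, 72, 51, 67 and 71 counts of Dlx2. The columns named 8 h replicates 13 and 15 matched the TPM tables of replicates 14 and 13, with 79.1% of 6860 genes within 0.1 log2 in each case. The column named replicate 14 matched none closely. That column reached 31.0% and 41.3% with the 1 h tables and 21.7% to 26.4% with the 8 h tables, so its time is unsure. This match used a per-gene offset taken from the 1 h libraries. Each count is that of the column so named, and the fits below took the column named replicate 14 as 8 h. With edgeR's quasi-likelihood test the 8 h minus 1 h log2 fold change was 0.30 ± 0.21 for Pax6 and -0.39 ± 0.33 for Dlx2 (adjusted p = 0.966 for both). With the series of the column names as a term, edgeR gave 0.30 ± 0.29 for Pax6 (adjusted p = 0.940) and -0.093 ± 0.39 for Dlx2 (adjusted p = 0.989). The column named 8 h replicate 13 is series 2 by name but matched the TPM table of a series 1 library. This term therefore cannot adjust for the series. No gene of 7590 was called (0%), with 199 genes (2.62%) at an unadjusted p under 0.05 in edgeR and 227 in DESeq2, which also called 0.

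Pax6 stood higher in the series 2 libraries than in the other 3. Beside time, however, the series difference sets 8 h replicates 13 and 15 against 8 h replicate 14 alone. The 1 h libraries enter that fit only through the spread. With time in the model, series 2 minus series 1 was 0.69 ± 0.14 for Pax6 (limma, adjusted p = 0.0421) and 0.53 ± 0.25 for Dlx2 (adjusted p = 0.250). For Emx2 it was 0.13 ± 0.32 (adjusted p = 0.835) and for Dlx1 it was -0.13 ± 0.40 (adjusted p = 0.873). No member passed both thresholds (0 of 4), where 4.02% of all tested genes did (558 genes). With the adjusted p limit of 0.05 alone and no fold limit, 1 of the 4 tested members passed, upwards, against 9.09% of all tested genes in either direction and 7.44% upwards, and the series 2 libraries lay wholly above the other 3 in 39.8% of all tested genes. Pax6 passed no longer after median-ratio scaling, at 0.56 (limma, adjusted p = 0.0803), nor without mitochondrial genes, at 0.63 (adjusted p = 0.0612). Its adjusted p was 0.139 without 8 h replicate 13, 0.146 without 8 h replicate 15 and 0.125 with no filter on low levels. The Y-linked and Xist levels and the mitochondrial share given above move with the series. So does the summed level of the 6 stem and precursor markers, most of it Fabp7 (9133 to 9688 TPM in series 1, 10943 and 11866 TPM in series 2). Fabp7, Slc1a3 and Egfr were each higher in both series 2 libraries than in series 1. Nes was lower in both (690 and 699 TPM against 736 to 784 TPM). Sox2 was at 181 and 218 TPM against 211 to 228 TPM. The part of these levels in the result was not tested.

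**Figure D3:**
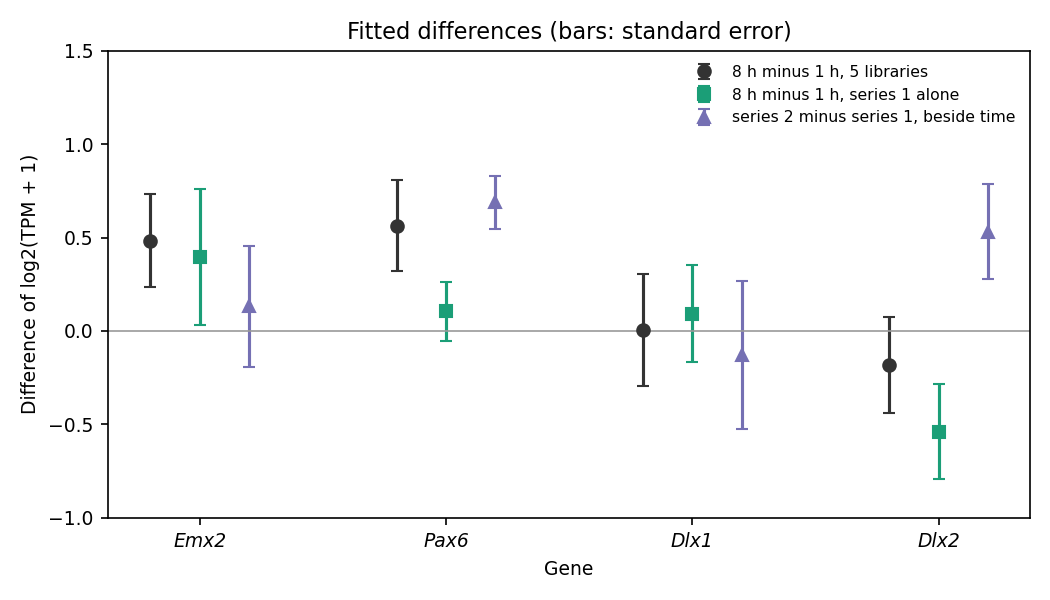
Fitted differences of log2(TPM + 1) with their standard errors for the 4 genes that passed the filter: 8 h minus 1 h over 5 libraries (circles), the same within identifier series 1 (squares) and series 2 minus series 1 with time in the model (triangles). For Pax6 the difference of 0.56 over 5 libraries becomes 0.10 within series 1, beside a series difference of 0.69. The series difference sets 8 h replicates 13 and 15 against 8 h replicate 14 alone.

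The members were then set beside 34 other regional genes, listed as pallial, striatal, ventral, anterior, or midbrain, hindbrain and dorsal neural tube genes. The ventral list is not limited to the forebrain. Of the 34 genes 10 averaged at least 1 TPM, and 0 of the 10 were called in either comparison. Of all tested genes 0.0433% were called between times and 4.02% between series. Among 7 other pallial genes only Lhx2, a cortical selector, reached 1 TPM, at 19.9 and 26.4 TPM at 1 h and 37.8, 20.6 and 44.4 TPM at 8 h (replicates 13, 14, 15). Like Pax6, it was highest in the series 2 libraries. Dmrt3 and Neurog1, markers of dorsal progenitors, were listed at 0 in every library, as Emx1 was.

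Among 9 other striatal genes 4 reached 1 TPM. Gsx1, the paralogue of Gsx2 with an overlapping role in the ganglionic eminences, was at 13.1 and 22.2 TPM at 1 h and at 39.2, 22.8 and 43.5 TPM at 8 h (replicates 13, 14, 15). It was above Gsx2 in every library. Meis2, a cofactor of Dlx and Pax6 proteins, averaged 117 TPM, and Ebf1, of differentiating striatal neurons, 1.51 TPM. Among 8 other ventral genes Olig2, which is also an oligodendrocyte progenitor marker, averaged 536 TPM and Nkx2-2 11.8 TPM, whereas Nkx2-4, Lhx8 and Foxa2 were listed at 0 in every library.

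Paralogues were unequal in the Emx, Gsx, Nkx2 and Nkx6 families, with Emx2 above Emx1, Gsx1 above Gsx2, Nkx2-2 above Nkx2-1 and Nkx2-4, and Nkx6-2 above Nkx6-1, each in 5 of 5 libraries. The order of the domains also depended on which genes stood for them. The other striatal genes summed to 174 to 237 TPM and the other ventral genes to 437 to 693 TPM, both above the other pallial genes at 21.0 to 45.6 TPM, which is the reverse of the order of the 9 members. Meis2 and Olig2 made up most of these 2 sums.

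The anterior genes Six3, Otx1 and Otx2 averaged 33.2, 3.55 and 3.51 TPM. None of 7 midbrain, hindbrain and dorsal neural tube genes averaged 1 TPM (0 of 7). The highest was En2 at 0.994 TPM, and Pax2, Pax3, Pax5 and Pax7 were listed at 0 in every library, beside a Pax6 mean of 12.9 TPM.

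For 8 h minus 1 h, the median over the 10 tested genes was 0.28 on the log2(TPM + 1) scale, with 6 of 10 above 0, against 0.10 over all genes. For series 2 minus series 1, again 8 h replicates 13 and 15 against 8 h replicate 14, the median was 0.42. Of these differences 9 of 10 were above 0, and the median over all genes was 0.11. With the adjusted p limit alone, 2 of the 10 passed, upwards, beside the 7.44% of all genes given above: Lhx2 at 0.96 ± 0.20 (limma, adjusted p = 0.0425) and Olig2 at 0.57 ± 0.13 (adjusted p = 0.0495). Neither passed after median-ratio scaling (adjusted p = 0.0741 and 0.109) or without mitochondrial genes (0.0578 and 0.0817). Neither passed without 8 h replicate 13 (0.112 and 0.131) or without 8 h replicate 15 (0.161 and 0.175). The 5 oligodendrocyte progenitor markers, which include Olig2, summed to 1531 to 2168 TPM in series 1 and to 2113 and 2400 TPM in series 2. Olig1 and Olig2 itself made up most of this sum. Cspg4 was lower in series 2 (22.6 and 19.8 TPM against 29.7 to 39.9 TPM), and Olig1, Pdgfra and Sox10 overlapped between the series. The part of these markers in the Olig2 difference was not tested. Gsx1 differed by 0.95 ± 0.33 between 8 h and 1 h (limma, adjusted p = 0.380) and by 0.40 ± 0.32 within series 1 (adjusted p = 0.786).

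**Figure D4:**
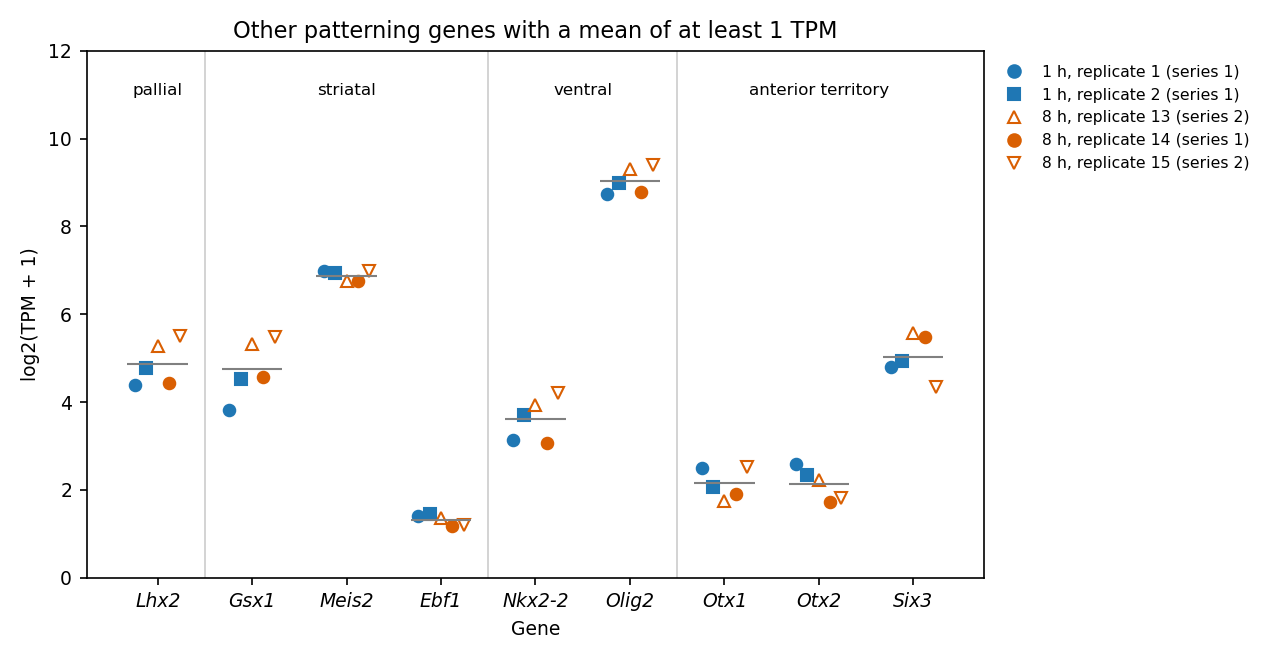
Level of 9 of the 10 other regional genes with a mean of at least 1 TPM as log2(TPM + 1), with blue for 1 h and orange for 8 h, filled symbols for identifier series 1, open symbols for series 2 and a grey line at the mean of the 5 libraries. Olig2 and Meis2 are the highest, at means of 536 and 117 TPM, and the open symbols of Lhx2, Gsx1, Nkx2-2 and Olig2 lie above the filled ones.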

How the data were processed

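RNA was measured in 5 bulk libraries, stranded, poly-A selected and read from both ends. The authors aligned reads to GRCm38 with STAR through nf-core/rnaseq and counted them with featureCounts. The deposited counts are whole reads per gene with no normalization. The count table used here lists 7599 genes, and its columns summed to 13988166 to 18572154 counts, which is not the full depth. The authors also deposited, for each library, TPM, FPKM and mean per-base coverage for 46078 genes, in the layout of StringTie, though no source used here names the tool or version. Total depth is unknown from these tables, so no counting interval is given for a TPM. The deposited coverage and FPKM served only for their ratio. Count columns were assigned by name, with 0 other value columns.

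TPM was summed per gene identifier, and log2(TPM + 1) was fitted over genes whose mean TPM reached 1, with limma 3.58.1 (intensity trend, R 4.3.3). Counts were fitted with edgeR 4.0.16, with DESeq2 1.42.0 as an alternative. The thresholds of adjusted p 0.05 and log2 fold 1 follow the RNA-seq analysis in the study's methods. Differences on the log2(TPM + 1) scale understate the change of low genes. The fits were tested on simulated data. Other settings were a pseudocount of 0.1, no filter, median-ratio scaling, no mitochondrial genes, no intensity trend, the identifier series as a term or series 1 alone, and leaving out each library.

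The members and lists were chosen with earlier results of these data known. Named genes were all members, listed regional genes with a mean of at least 1 TPM or at 0 everywhere, and the highest marker of each list, and 1 gene that met the rule is not reported here by name, though counts, medians and sums over the lists include it. A search for genes of like pattern was to cover members spanning at least 1 on the log2(TPM + 1) scale, and no member did (0 genes). The other genes named, and the values without a library given for them, were chosen after their values were seen. Member coordinates were those of the tables and equal GENCODE vM21. Of 4 antisense genes 3 were matched by symbol. Promoter windows came from RefSeq, GRCm38.p6, and exon overlap from vM21.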

Additional observations from a re-analysis of the deposited data

How the results depend on the processing

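Of 151 values under another setting, 134 kept their direction and their side of the threshold (counts of calls: stayed within 1.5 times, sums: moved by under 1 SD). The 8 h minus 1 h difference of Dlx1, at 0.0069, turned to -0.041 with pseudocount 0.1, -0.051 with median-ratio scaling and -0.023 without mitochondrial genes, and, on leaving out a library, ranged from -0.19 (8 h replicate 15 out) to 0.25 (8 h replicate 13 out), with -0.10 for 1 h replicate 2 and -0.036 for 8 h replicate 14. Its series difference, at -0.13, ranged from -0.57 (8 h replicate 15 out) to 0.31 (8 h replicate 13 out). The number of genes called between times, 6, became 0 with no filter (2371 genes at an unadjusted p under 0.05), 19 with the series as a term and 0 to 573 on leaving out a library (573 with 8 h replicate 14 out, 1 with 8 h replicate 13 out and 0 with any other out). The unadjusted counts behind those zeros were 767, 668 and 850 in limma. The number called between series, 558, became 0 with no filter (4642 unadjusted) and 82 to 642 on leaving out a library (141 with 8 h replicate 13 out, 82 with 8 h replicate 15 out). It could not be fitted with 8 h replicate 14 out, since time and series are then the same split. The cause was not tested. The domain sums kept their order under every library left out, at means of 37.5 to 43.3 TPM (pallial), 3.69 to 4.25 TPM (striatal) and 0.686 to 0.940 TPM (ventral). No paired analysis was possible because the groups share no replicate number. With 2 and 3 libraries, no two-sided exact test of a single gene can go below 0.2.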
